A study of Homo sapiens with 24 samples.

Results

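The genes described here code for subunits of the transcription factor NF-κB (NFKB1, NFKB2, RELA and RELB), for the inhibitors that hold it in the cytoplasm (NFKBIA and NFKBIE) and for the products of 4 of its known target genes (TNFAIP3, TNFAIP2, BIRC3 and SOD2). They were chosen by name. Every gene spot of the array that carried one of these 10 names, of 30982 gene names in all, was used, and these spots made up 12 of the 41000 gene probes. TNFAIP3 and SOD2 had 2 probes each and the other 8 genes had 1. All 12 probes passed the filter on dim spots, and none was saturated on any array.

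The cells were U87 MG, an established human glioblastoma line, and the study asked which genes respond to proton therapy (PT) with and without Si306, an inhibitor of the tyrosine kinase SRC. RNA was taken 24 h after irradiation and read on 2-colour Agilent whole-genome arrays, with the treated RNA in Cy5 (red) and the control RNA in Cy3 (green) on every array, so a dye effect was not balanced by a swap. In the first pair of configurations, cells given 2 Gy (U87 2 Gy) or 10 Gy (U87 10 Gy) of protons and no Si306 were set against untreated cells. In the second pair, cells given 10 µM Si306 with the same doses (the configurations U87 Si306 + 2 Gy and, at the higher dose, U87 Si306 + 10 Gy) were set against cells given PT alone at that dose. No configuration held Si306 without PT.

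The 6 labelled replicates of each configuration were repeat scans of 2 arrays, 3 scans per array, so n = 2 arrays, except for NFKBIA and the bright SOD2 probe in U87 Si306 + 2 Gy with 1 array each, and the p-values measure only the spread between arrays, which may be technical. By their file headers, 2 scans came from an array of the other PT dose than their label gives, and these were left out (22 of 24 were used). The PT configurations lay on 1 slide and the Si306 configurations on the other, so the slide and Si306 cannot be told apart, whereas the doses were compared within a slide. Log ratios of arrays correlated at 0.79 to 0.96 over all tested probes within a slide and at -0.07 to 0.01 between the slides. Of 11 genes known from glioma and U87 cells, 8 were well above background in the Cy3 channel on all 8 arrays and S100B on none. Among markers of leukocytes, endothelium and epithelium, CD14 was above background in Cy3 on all 8 arrays, PTPRC, CDH1 and KRT5 were above it in neither channel of any array, and CDH5 was above it in Cy5 on 3 arrays and in Cy3 on none. EPCAM was above it in Cy3 on 6 arrays, PECAM1 and CD3E on 4 and VWF on 3, and PECAM1, CD3E, CD14 and EPCAM rose with Si306 added to either dose. With 2 and 10 Gy in turn, EPCAM rose by 0.33 and 0.31, PECAM1 by 0.28 at both, CD3E by 0.13 and 0.21 and CD14 by 0.12 and 0.11, while CDH5 rose by 0.17 with 2 Gy and did not pass with 10 Gy, and VWF passed at neither. After PT alone, EPCAM rose by 0.15 in U87 2 Gy and did not pass in U87 10 Gy. Of 3 tested leukocyte markers, 1 rose in U87 2 Gy (highest CD3E, 0.11) and 0 in U87 10 Gy. Of 3 tested endothelial markers, 0 rose in U87 2 Gy and 1 in U87 10 Gy (highest VWF, 0.11). The part of these markers in the results was not tested. With so few arrays, their number limits the precision of every value.

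NF-κB is a family of dimers of RELA, RELB, c-REL and the processed products of NFKB1 and NFKB2. In resting cells IκB proteins such as NFKBIA (IκBα) and NFKBIE (IκBε) keep the dimers out of the nucleus, and the IKK kinase complex frees them by marking the IκB proteins for degradation, for instance after DNA damage or signals from tumour necrosis factor and interleukin receptors. The freed dimers bind κB sites in promoters and switch on their own inhibitors, among them NFKBIA and TNFAIP3 (the ubiquitin editing enzyme A20), as well as survival genes such as BIRC3 and SOD2, and NF-κB activity is known to be high in many glioblastomas.

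The letters of such sites can be read in the promoters of these genes. RefSeq (GRCh38.p14) windows that run from 250 bases before to 50 bases after the transcript start were at hand for 8 of the 10 genes, 15 windows in all, and for neither RELB nor NFKBIE. They were searched on both strands for the decameric κB consensus, with overlapping matches shown as 1 stretch. The motif was found in 5 of the 8 genes (NFKB1, NFKB2, NFKBIA, TNFAIP3 and BIRC3). It was in 6 of the 15 windows of the 8 genes, against 11.3% of all 35116 windows, and 13.3% of all 27305 genes had a window with it. RELA, TNFAIP2 and SOD2 had no match in their windows, which says only that these letters are not there. The NFKBIA promoter, printed here because this gene gave the highest ratio of the 12 probes, covers chr14:35404750-35404999 on the minus strand. The SOD2 promoter without a match covers chr6:159727385-159727634 on the minus strand and is shown for contrast. Both are given 5′ to 3′ up to the base before the start, with the motif in capitals.
NFKBIA: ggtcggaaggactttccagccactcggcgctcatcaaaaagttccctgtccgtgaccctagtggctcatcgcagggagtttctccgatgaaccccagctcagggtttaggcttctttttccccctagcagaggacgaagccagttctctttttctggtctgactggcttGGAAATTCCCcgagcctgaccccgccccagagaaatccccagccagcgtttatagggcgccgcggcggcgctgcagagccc
SOD2: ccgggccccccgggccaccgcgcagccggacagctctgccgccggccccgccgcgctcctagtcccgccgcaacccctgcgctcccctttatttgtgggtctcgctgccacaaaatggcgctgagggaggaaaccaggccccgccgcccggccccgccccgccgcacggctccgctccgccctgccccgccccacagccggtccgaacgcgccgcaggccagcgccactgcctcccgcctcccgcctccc

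Shorter stretches show matches in the other 4 genes, with 10 bases on either side and the motif in capitals. The NFKB1 stretch lies at chr4:102501300-102501329, 49 to 40 bases before the start. The NFKB2 stretch with the longest match lies at chr10:102394461-102394491 and the one nearest to a start at chr10:102395674-102395703. Further NFKB2 stretches, at -78 to -69 and -176 to -167 from their starts, are not printed. The TNFAIP3 stretch, at chr6:137867182-137867223, holds 2 motifs that a pair of bases separates. The BIRC3 stretches lie at chr11:102317275-102317304 and chr11:102317339-102317368. All of these stretches are printed as the plus strand. The motifs of TNFAIP3, BIRC3 and, above, NFKBIA match the consensus on the strand opposite to the one printed. A match in letters is not a measurement of binding.
NFKB1: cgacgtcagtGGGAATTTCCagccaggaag
NFKB2, longest match: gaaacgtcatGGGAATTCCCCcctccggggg
NFKB2, nearest to a start: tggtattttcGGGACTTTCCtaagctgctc
TNFAIP3: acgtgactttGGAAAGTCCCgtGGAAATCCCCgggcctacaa
BIRC3, farther from the start: tttgggtcatGGAAATCCCCgagtgggttt
BIRC3, nearer to the start: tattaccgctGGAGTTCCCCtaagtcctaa

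Most of these genes were up regulated after PT alone, by small amounts. In U87 2 Gy, 9 of the 12 probes rose, 2 fell and 1 did not pass the test, and in U87 10 Gy 7 rose, 3 fell and 2 did not pass. A probe rose or fell where the Benjamini-Hochberg adjusted p of limma was under 0.05. That threshold was passed by 57.4% of 30240 tested probes in U87 2 Gy (32.2% up and 25.2% down). In U87 10 Gy 58.4% of 30263 passed (31.5% up and 26.9% down). The median log2 ratio of the 12 probes was 0.18 in U87 2 Gy and 0.20 in U87 10 Gy, against 0.02 and 0.01 over all tested probes. The median size of the ratio, whatever its sign, was 0.288 and 0.233, against 0.126 and 0.130. No member reached a 2-fold change, a limit passed by 0.691% of tested probes in U87 2 Gy and 0.919% in U87 10 Gy. The nearest was NFKBIA, at 1.89-fold. With median centring, NFKBIA (log2 ratio 1.35) and RELB (1.04) were past 2-fold in U87 2 Gy. The sizes of the other rises depended on the scaling too. With median centring, RELA was 0.51, TNFAIP2 0.73, NFKBIE 0.55 and the bright SOD2 probe 0.55 in U87 2 Gy, and RELA was 0.50, RELB 0.59, NFKBIA 0.74 and TNFAIP2 0.47 in U87 10 Gy. Over all settings NFKB2 reached 0.73 and 0.54 at the lower and higher dose and BIRC3 0.37 and 0.48.

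**Figure D1:**
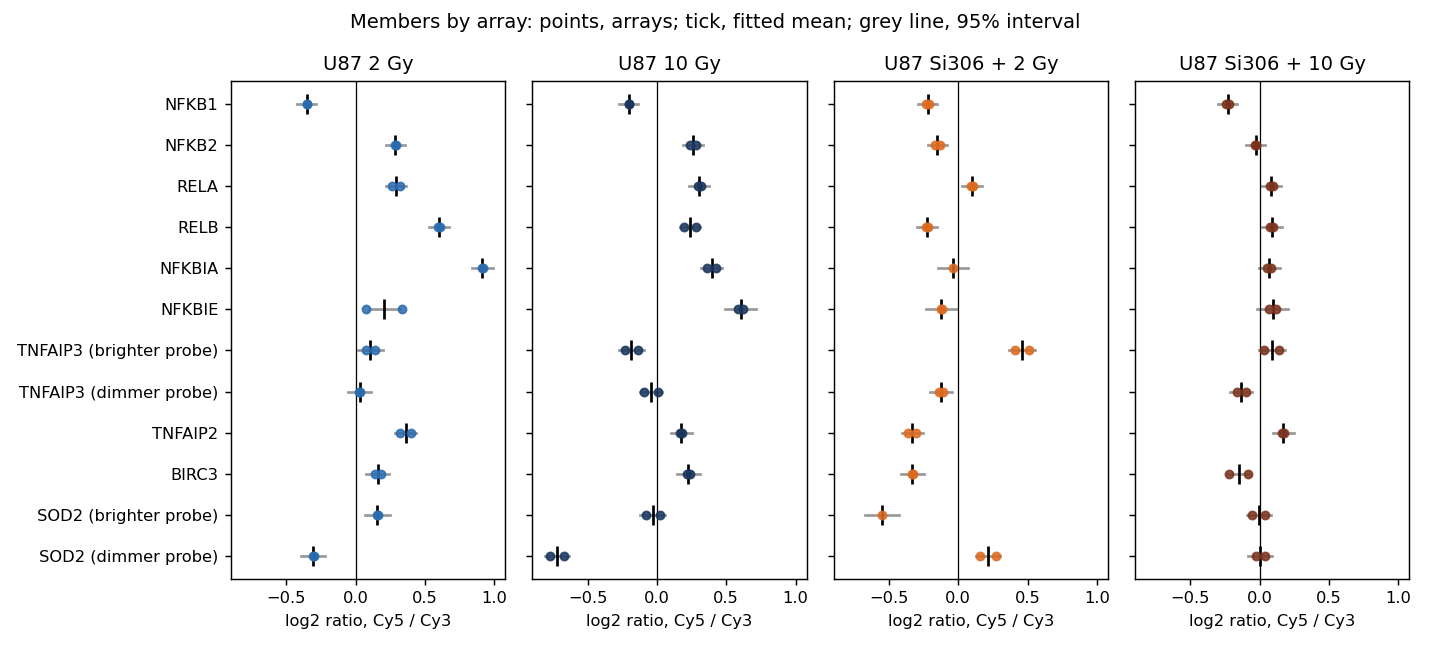
Log2 ratio of treated to control RNA (horizontal axis) at each of the 12 probes in the 4 configurations. Each point is 1 array, the mean of its scans. The tick is the fitted configuration mean and the grey line its 95% interval. NFKBIA at 0.91 and RELB at 0.60 stand highest in U87 2 Gy, NFKBIE at 0.60 in U87 10 Gy and TNFAIP3 at 0.46 in U87 Si306 + 2 Gy.

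Among the subunits, the 4 genes did not move together. NFKB1, which codes for p105 and its processed product p50, had 10 spots on each array (chr4:103895057-103895116, plus strand, in the hg17 positions of the array) and lay at -0.35 on both arrays of U87 2 Gy and at -0.21 on both arrays of U87 10 Gy. It fell to 0.783-fold in U87 2 Gy (log2 ratio -0.35, SE 0.031, adjusted p = 2.78e-06) and fell in U87 10 Gy (adjusted p = 1.62e-04). When each scan was centred on its median in place of the loess curve, the U87 2 Gy mean was -0.02 and the U87 10 Gy mean turned to 0.07. The other 3 subunits rose at both doses, except that with median centring NFKB2 stood at 0.017 (adjusted p = 0.768) in U87 2 Gy and 0.048 (adjusted p = 0.415) in U87 10 Gy.

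RELA, the p65 subunit with the main transactivation domain, was measured by 10 spots (chr11:65178227-65178286, minus strand) and gave 0.26 and 0.32 on the arrays of U87 2 Gy and 0.32 and 0.29 on those of U87 10 Gy. The means, 0.29 (adjusted p = 1.72e-05) and 0.31 (adjusted p = 1.06e-05), were nearly equal. NFKB2, which codes for p100 and p52 of the non-canonical pathway, gave 0.29 and 0.28 in U87 2 Gy and 0.28 and 0.24 in U87 10 Gy, also over 10 spots (chr10:104151043-104151219, plus strand), with adjusted p = 1.69e-05 and 3.22e-05. RELB, the partner of p52, was among the brightest probes of the array (chr19:50233225-50233284, plus strand) and gave 0.60 and 0.61 in U87 2 Gy and 0.28 and 0.20 in U87 10 Gy. It rose 1.52-fold at 2 Gy (SE 0.033, adjusted p = 8.99e-08) and less at 10 Gy (log2 ratio 0.24, adjusted p = 9.05e-05).

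Both inhibitors rose at both doses, but each was highest at a different one. NFKBIA, an IκB that NF-κB itself induces (chr14:34940539-34940598, minus strand), gave 0.91 and 0.92 on the arrays of U87 2 Gy and 0.43 and 0.36 on those of U87 10 Gy. Its mean of 0.91 at 2 Gy (SE 0.034, adjusted p = 1.68e-08) stood above 99.2% of all tested probes, and at 10 Gy it was 0.39, or 1.31-fold (adjusted p = 4.26e-06). NFKBIE (chr6:44334536-44334595, minus strand) had the opposite order, with 0.58 and 0.62 in U87 10 Gy and 0.08 and 0.34 in U87 2 Gy. The 10 Gy mean was 0.60, a 1.52-fold rise (adjusted p = 1.71e-06). The 2 Gy mean of 0.21 (adjusted p = 0.00499) rested on arrays that differed, and the 3 scans of the lower one ran from -0.06 to 0.21. Without the second array it was 0.075 (adjusted p = 0.197).

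Of the targets, TNFAIP2 and BIRC3 rose at both doses, with the exceptions given here, the probes of SOD2 differed in sign at 2 Gy, and TNFAIP3 fell at 10 Gy at its brighter probe. TNFAIP2, a cytokine-induced protein of cell protrusions (chr14:102673370-102673429, plus strand), gave 0.40 and 0.32 in U87 2 Gy and 0.17 and 0.18 in U87 10 Gy, with means of 0.36 (adjusted p = 5.42e-06) and 0.17 (adjusted p = 0.00116). With the ratio of the scanner software the second was 0.096 (adjusted p = 0.067). BIRC3, the ubiquitin ligase cIAP2 that opposes cell death (chr11:101713566-101713625, plus strand), gave 0.14 and 0.18 in U87 2 Gy, where median centring turned the mean from 0.16 to -0.10, and 0.22 and 0.24 in U87 10 Gy (mean 0.23, adjusted p = 3.6e-04), where median centring left 0.048 (adjusted p = 0.372). Without the second array of U87 2 Gy its mean there was 0.14 (adjusted p = 0.0574).

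SOD2, the mitochondrial superoxide dismutase, had a bright probe (chr6:160074001-160074060, minus strand) and a dimmer one (chr6:160082966-160083025, minus strand) that was designed on another transcript record. The bright probe gave 0.15 and 0.16 in U87 2 Gy, where it rose (adjusted p = 0.00622), and 0.02 and -0.08 in U87 10 Gy (mean -0.03, adjusted p = 0.513). The dimmer probe gave -0.30 and -0.31 in U87 2 Gy and -0.67 and -0.77 in U87 10 Gy, and it fell at both doses, to 0.606-fold at 10 Gy (log2 ratio -0.72, SE 0.040, adjusted p = 6.59e-08). The call at 2 Gy was lost under 3 of 22 other settings. The direction of SOD2 after PT was therefore not settled by these probes.

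TNFAIP3, or A20, which removes the ubiquitin chains that carry the signal to IKK, was read by a brighter probe (chr6:138245372-138245431, plus strand) at 0.14 and 0.07 in U87 2 Gy and at -0.14 and -0.23 in U87 10 Gy. The mean of 0.11 at 2 Gy just passed the test (adjusted p = 0.0496) and lost it under 13 of 25 other settings, while at 10 Gy this probe fell (mean -0.18, adjusted p = 0.00296). That fall was lost under 3 of 25 other settings, and with the disagreeing scans kept under their label it was -0.068 (adjusted p = 0.422). The dimmer probe (chr6:138243003-138243062, plus strand) did not pass at either dose, with means of 0.03 and -0.04, and its Cy3 signal was not well above background on any array.

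The doses differed at several of these genes within the slide of PT alone. In the difference of 10 Gy minus 2 Gy, 2 of the 12 probes were higher at 10 Gy, 6 were lower and 4 did not pass, where 20% of all tested probes passed (9.33% higher and 10.7% lower). With median centring 1 was higher and 6 were lower. NFKBIA was lower at 10 Gy by a log2 difference of -0.52 (SE 0.048, adjusted p = 1.15e-04), with both 2 Gy arrays above both 10 Gy arrays. RELB was lower by -0.36 (adjusted p = 5.12e-04), the brighter TNFAIP3 probe by -0.29 (adjusted p = 0.00647), TNFAIP2 by -0.19 (adjusted p = 0.0212), the bright SOD2 probe by -0.19 (adjusted p = 0.0387) and the dimmer SOD2 probe by -0.42 (adjusted p = 6.39e-04). NFKBIE was higher by 0.40 (adjusted p = 0.00323) and NFKB1 by 0.15 (adjusted p = 0.0374). The call of NFKB1 was lost under 13 of 25 other settings, that of the bright SOD2 probe under 13 of 24, that of TNFAIP2 under 6 of 25, that of the dimmer SOD2 probe under 4 of 22, that of the brighter TNFAIP3 probe under 3 of 25, and those of RELB, NFKBIE and NFKBIA under 1 each. The RNA of PT alone was also read in Cy3 on the slide with Si306, and there the levels of the doses lay closer at NFKBIE, NFKB1, RELB and NFKBIA. NFKBIE stood at 11.53 log2 units of normalised intensity for U87 2 Gy and 11.54 for U87 10 Gy, against 11.13 and 11.52 in Cy5 on the slide of PT alone. NFKB1 stood at 10.51 for both in Cy3, against 10.44 and 10.61 in Cy5. RELB stood at 13.58 and 13.49 in Cy3, against 14.05 and 13.59 in Cy5, and NFKBIA at 14.59 (1 array) and 14.44, against 14.10 and 13.58. The dose differences of these Cy3 levels were not tested.

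For RELA the dose difference was 0.01, with a 95% interval of -0.09 to 0.12, and NFKB2 and BIRC3 did not pass either. The count of 8 probes depended on the scans used. When the 2 scans with a label that disagreed with their array were kept under that label, 0 of the 12 passed in limma, 0 also at an unadjusted p under 0.05, and 0 of all tested probes passed. Without either of the arrays that held such a scan, 4 of the 12 passed.

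**Figure D2:**
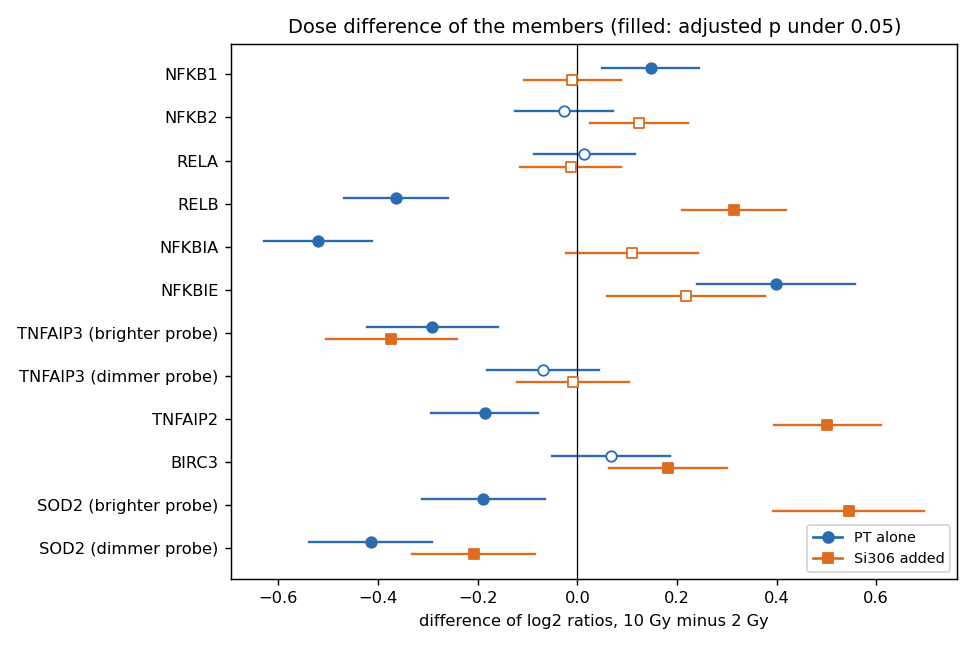
Difference in log2 ratio between 10 Gy and 2 Gy (horizontal axis) for each of the 12 probes, with PT alone and with Si306 added. Points are limma estimates and bars their 95% intervals. NFKBIA (-0.52) and RELB (-0.36) lie left of 0 with PT alone, and TNFAIP2 (0.50) and RELB (0.31) right of it with Si306 added. The dimmer probes of SOD2 and TNFAIP3 were not above background on the arrays with Si306.

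With Si306 added to 2 Gy, 6 of the 10 probes above background fell against 2 Gy alone, 1 of which, the bright SOD2 probe, was read on 1 array. The exception was the analysis with median centring, where NFKB1, RELB, NFKBIA, NFKBIE, TNFAIP2 and BIRC3 had values above 0 and the bright SOD2 probe stood at 0.01. The dimmer probes of TNFAIP3 and SOD2 were not well above background in either channel of the 4 arrays with Si306, and their fitted values there are not read as ratios. Of the other 10 probes, 2 rose, 6 fell (5 without the bright SOD2 probe) and 2 did not pass in U87 Si306 + 2 Gy, where 65% of all tested probes passed (36.4% up and 28.7% down). In U87 Si306 + 10 Gy, 3 rose, 2 fell and 5 did not pass, where 61.1% of all tested probes passed (33.2% up and 27.9% down). The median log2 ratio of all 12 probes, the dimmer ones at background included, was -0.14 at 2 Gy and 0.04 at 10 Gy. Over all tested probes it was 0.03 and 0.02. With median centring it was 0.22 and 0.18 over the 12 probes, against 0.0059 and -0.0029 over all. As fitted, none of the 12 changed 2-fold, against 0.655% and 0.344% of tested probes. Over all 12 probes 3 rose and 7 fell with 2 Gy and 3 rose and 3 fell with 10 Gy, and with median centring 8 rose and 3 fell at each dose.

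Of the subunits, NFKB1 gave -0.21 and -0.23 on the arrays of U87 Si306 + 2 Gy and -0.24 and -0.22 on those of U87 Si306 + 10 Gy, and it fell in both (adjusted p = 8.18e-05 and 6.69e-05), with the sign turned by median centring to 0.25 and 0.11. RELB gave -0.23 and -0.22 with 2 Gy and 0.10 and 0.08 with 10 Gy, a fall at one dose (adjusted p = 1.27e-04) and a smaller rise at the other (adjusted p = 0.0383). That rise was lost under 6 of 25 other settings, those without either array of U87 Si306 + 10 Gy among them. With median centring it was 0.62 (adjusted p = 1.84e-06), and the fall with 2 Gy turned to 0.55. NFKB2 gave -0.17 and -0.14 with 2 Gy, where it fell (adjusted p = 0.00144), and -0.02 and -0.03 with 10 Gy (adjusted p = 0.464). With median centring it was -0.81 and -0.36 (adjusted p = 3.23e-07 and 1.54e-04). RELA gave 0.09 and 0.10 with 2 Gy and 0.10 and 0.07 with 10 Gy, small rises with adjusted p = 0.0204 and 0.0419. Each lost the call without either array of its own configuration, and in all under 2 and 6 of 25 other settings. Both rises were 0.18 with median centring.

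As fitted, neither inhibitor passed the test against its PT control, but with median centring both were higher at both doses, and NFKBIA stood at 0.88 and 0.67 and NFKBIE at 0.45 and 0.49 with 2 and 10 Gy (adjusted p of 1.54e-06, 2.63e-06, 1.67e-04 and 1.27e-04). NFKBIA had 1 measured array in U87 Si306 + 2 Gy, since the scanner software had flagged its spot in all scans of the other, and it stood at -0.04 there (SE 0.048, adjusted p = 0.498, 95% interval -0.15 to 0.07), with an error borrowed from the other configurations. In U87 Si306 + 10 Gy it gave 0.08 and 0.06 (adjusted p = 0.0978). NFKBIE gave -0.12 and -0.13 with 2 Gy (adjusted p = 0.0516) and 0.12 and 0.07 with 10 Gy (adjusted p = 0.133). Of the 25 other settings, it passed as lower with 2 Gy under 10 and as higher with 10 Gy under 5, while NFKBIA passed as higher with 10 Gy under 2 of 24.

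The targets moved in both directions. The brighter probe of TNFAIP3 gave 0.51 and 0.41 in U87 Si306 + 2 Gy, a 1.38-fold rise (log2 ratio 0.46, SE 0.042, adjusted p = 2.93e-06), and 0.03 and 0.14 in U87 Si306 + 10 Gy (adjusted p = 0.0928), where median centring gave -0.07. The rise with 2 Gy ranged from 0.17, with both probes averaged, to 0.75, with the ratio of the scanner software. TNFAIP2 gave -0.36 and -0.30 with 2 Gy, where it fell (adjusted p = 8.19e-06), and 0.16 and 0.18 with 10 Gy, where it rose (adjusted p = 0.00132) and stood at 0.69 with median centring. BIRC3 fell in both, from -0.34 and -0.33 with 2 Gy (adjusted p = 1.68e-05) to -0.22 and -0.08 with 10 Gy (adjusted p = 0.00504), and median centring turned both means, to 0.12 and 0.18. Without the first array of U87 Si306 + 10 Gy the second mean was -0.082 (adjusted p = 0.193).

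The bright SOD2 probe was measured on 1 array of U87 Si306 + 2 Gy, at -0.55 (SE 0.055, adjusted p = 1.17e-05), and at -0.05 and 0.04 in U87 Si306 + 10 Gy (adjusted p = 0.912). The first of these values has no replicate, and its error is borrowed from the other configurations.

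With Si306 added, the doses again differed within a slide. Of the 10 probes above background, 4 were higher at 10 Gy than at 2 Gy, 1 was lower and 5 did not pass, where 21.3% of all tested probes passed (9.4% higher and 11.9% lower). Over all 12 probes 4 were higher and 2 lower, and with median centring 5 were higher and 1 lower. The brighter TNFAIP3 probe was lower at 10 Gy by -0.37 (adjusted p = 0.00176). TNFAIP2 was higher by 0.50 (adjusted p = 7.83e-05), RELB by 0.31 (adjusted p = 0.00127), BIRC3 by 0.18 (adjusted p = 0.0349) and the bright SOD2 probe by 0.55 (adjusted p = 5.97e-04), the last resting on 1 array at 2 Gy. With median centring RELB was 0.070 (adjusted p = 0.361), BIRC3 0.058 (adjusted p = 0.484) and TNFAIP2 0.27 (adjusted p = 0.00361), and the call of BIRC3 was lost under 13 of 25 other settings. These are differences against 2 different controls, PT alone at each dose. In the difference with PT alone, RELB stood at -0.36 and TNFAIP2 at -0.19. With the disagreeing scans kept under their label, 2 of the 12 probes passed in place of 6.

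Adding the ratio of each Si306 configuration to that of PT alone at the same dose gives an estimate net of untreated cells. It holds only if the PT-alone RNA was the same on both slides and the probe had no dye effect. The treated RNA was in Cy5 in both terms, so a dye effect would add up in the sum, and this was not tested. On this sum 5 of the 10 probes were higher than in untreated cells, 3 were lower and 2 did not pass for Si306 + 2 Gy, where 66.8% of all tested probes passed (39.7% higher and 27% lower), and 6 were higher, 1 lower and 3 did not pass for Si306 + 10 Gy, where 65.7% passed (37.6% higher and 28.2% lower). With median centring NFKB1, NFKB2 and the bright SOD2 probe changed sign at both doses and BIRC3 at 2 Gy, and 8 of the 12 probes were higher and 3 lower for Si306 + 2 Gy. NFKBIA was above untreated cells by 0.88 (adjusted p = 8.41e-07, with 1 array of U87 Si306 + 2 Gy) and 0.46 (adjusted p = 1.49e-05), RELA by 0.39 at both doses and RELB by 0.38 and 0.33. NFKB1 was lowest, at -0.57 (adjusted p = 9.35e-07) and -0.44 (adjusted p = 6.31e-06), with the sign turned by median centring to 0.23 and 0.17. NFKBIE was at 0.08 (adjusted p = 0.335) for 2 Gy and 0.70 (adjusted p = 7.77e-06) for 10 Gy, and TNFAIP3 at 0.57 (adjusted p = 9.78e-06) and -0.10 (adjusted p = 0.176). The sums depended on the scaling in size too. With median centring NFKBIA was 2.23 and 1.41, RELB 1.59 and 1.21, NFKBIE 1.00 and 1.39, TNFAIP2 1.15 and 1.16 and RELA 0.69 at both doses.

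The first condition behind that sum, the same PT-alone RNA on both slides, can be read on the arrays. The RNA of PT alone was in the Cy5 channel on one slide and in the Cy3 channel on the other. NFKB1 was level between them, at 10.4 and 10.5 log2 units of normalised intensity for U87 2 Gy. BIRC3 was not, with 7.04 on the slide of PT alone and 10.3 on the slide with Si306, a 9.68-fold difference (8.81-fold for U87 10 Gy) that was larger than that of 97.7% of tested probes. On the first slide both of its channels, untreated cells included, lay between 6.84 and 7.16, and on the second both lay between 9.98 and 10.3. TNFAIP2 was higher on the second slide by 1.57 and 1.62, and RELA lower by -1.08 and -1.11, against a median size of 0.536 and 0.532 over all tested probes. The slide, the dye and any difference between the cultures move together in these values and cannot be told apart, so no difference in level between the slides is read as one between cells, and the sums above carry that uncertainty.

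**Figure D3:**
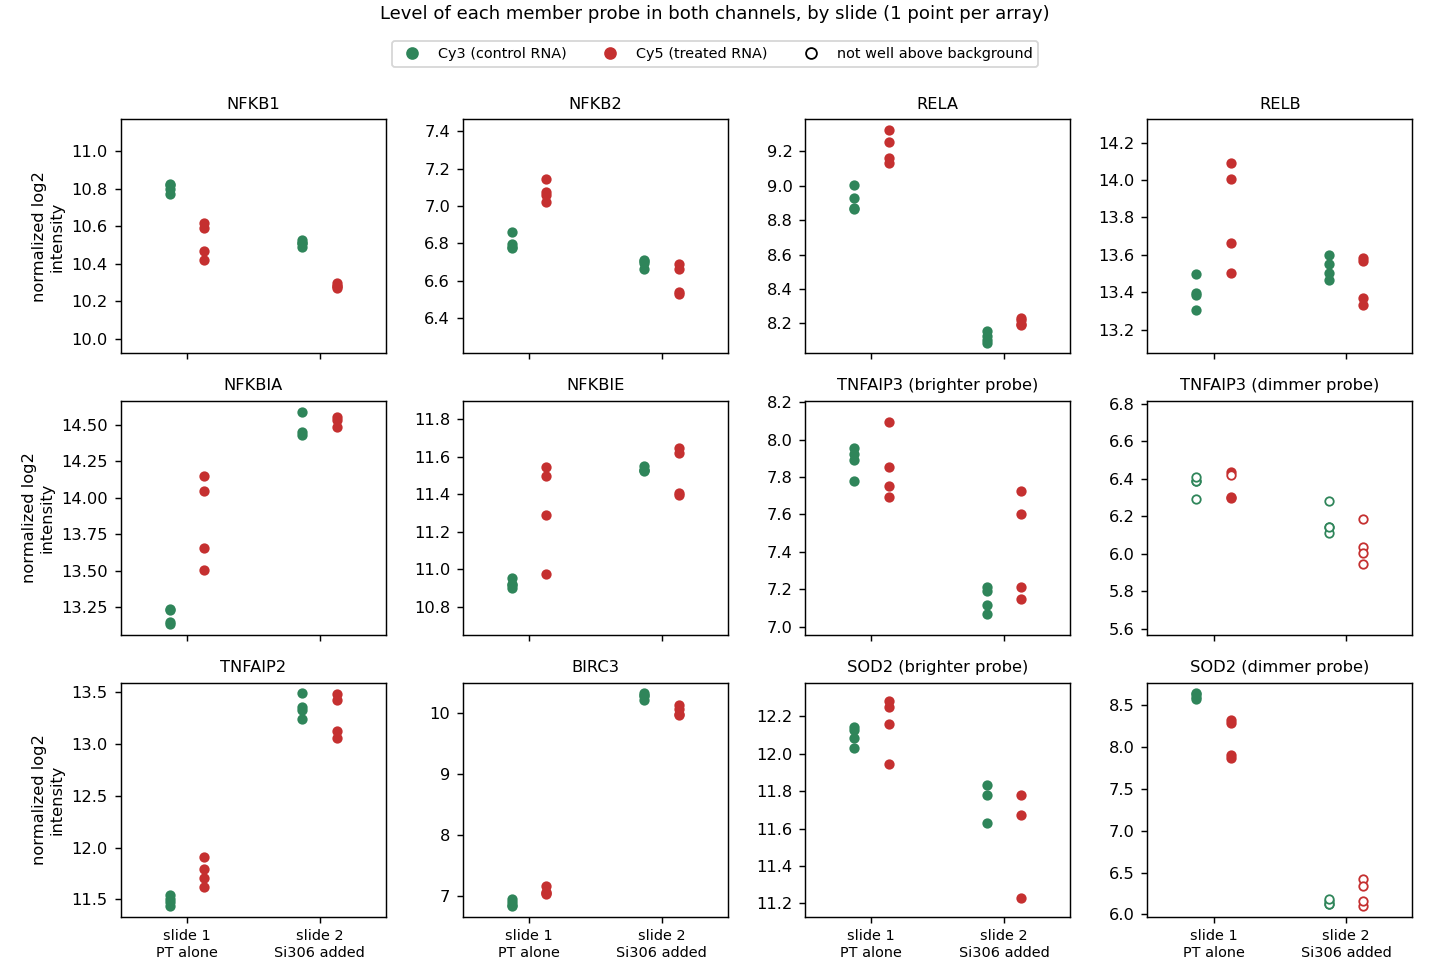
Normalised log2 intensity (vertical axis, with its own range in each panel) of the 12 probes in both channels of each of the 8 arrays, by slide. Each point is 1 channel of 1 array. BIRC3 lies near 7 on the slide of PT alone and near 10 on the slide with Si306, in treated and control channels alike.

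The other genes of the pathway were taken from a list of 76 (subunits, IKK kinases and adaptors, feedback proteins, ligands, receptors and targets), of which 75 had a spot and 68 were tested, each at its brightest probe. In U87 2 Gy 28 rose and 14 fell, in U87 10 Gy 29 rose and 11 fell, in U87 Si306 + 2 Gy 18 rose and 28 fell, and in U87 Si306 + 10 Gy 25 rose and 23 fell. The called genes were 42, 40, 46 and 48 of the 68, beside 57.4%, 58.4%, 65% and 61.1% of all tested probes. The split was 23 up and 14 down in U87 10 Gy with the ratio of the scanner software, and 31 up and 29 down in U87 Si306 + 2 Gy with median centring. Their median log2 ratios were 0.04, 0.04, -0.03 and 0.00. Of the 9 receptors, 5 rose and 2 fell at each dose of PT alone, and 2 rose and 6 and 4 fell with Si306 added. Of the 21 other targets, 11 and 12 rose and 3 and 2 fell with PT alone, and 8 and 9 rose and 8 and 8 fell with Si306 added. Differences between configurations in these counts were not tested.

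**Figure D4:**
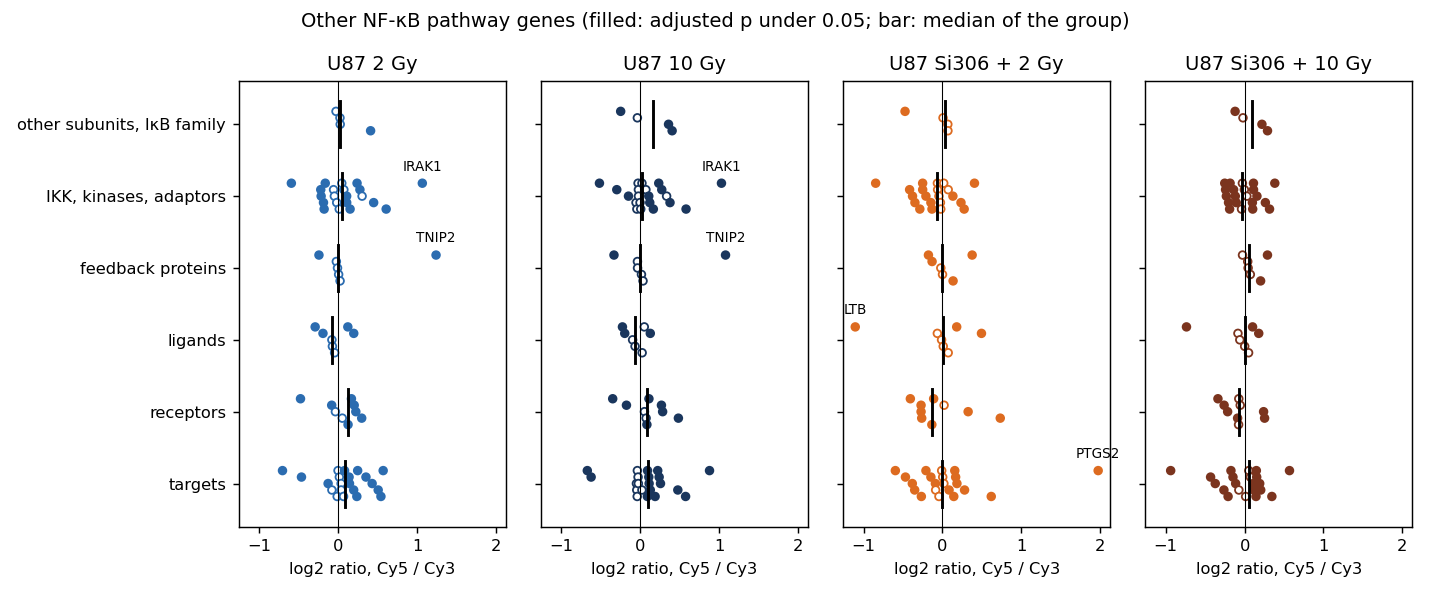
Log2 ratio (horizontal axis) of the 68 other NF-κB pathway genes in the 4 configurations, grouped by role. Each point is 1 gene at its brightest probe. TNIP2 and IRAK1 lie right of 1 with PT alone, and PTGS2 at 1.98 and LTB at -1.11 are the extremes of U87 Si306 + 2 Gy.

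Changes of 2-fold were seen at 4 of these 68 genes. In U87 2 Gy and U87 10 Gy there were 2 each, beside 0.691% and 0.919% of all tested probes. With Si306 added to 2 and 10 Gy there were 2 and 0, beside 0.655% and 0.344%. IRAK1, a kinase downstream of Toll-like and interleukin-1 receptors, gave 1.11 and 1.03 in U87 2 Gy (mean 1.07, adjusted p = 2.07e-09) and 1.01 and 1.05 in U87 10 Gy (mean 1.03, adjusted p = 1.97e-09). TNIP2, which works with A20 in restraining the pathway, gave 1.28 and 1.20 in U87 2 Gy (mean 1.24, adjusted p = 5.7e-09) and 1.15 and 1.01 in U87 10 Gy (mean 1.08, adjusted p = 1.09e-08). With Si306 added, IRAK1 stood at -0.29 and -0.19 against the PT controls and TNIP2 at -0.18 and -0.03.

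PTGS2, the prostaglandin synthase COX-2, gave 2.07 and 1.88 in U87 Si306 + 2 Gy (mean 1.98, adjusted p = 2.09e-10) and 0.63 and 0.51 in U87 Si306 + 10 Gy (mean 0.57, adjusted p = 1.51e-06). LTB, the lymphotoxin β ligand of the non-canonical pathway, gave -1.10 and -1.11 in U87 Si306 + 2 Gy (mean -1.11, adjusted p = 2.48e-09) and -0.73 and -0.74 in U87 Si306 + 10 Gy (mean -0.74, adjusted p = 5.44e-08). The lowest of the list was IL6, a cytokine gene, in U87 2 Gy (-0.74 and -0.68, adjusted p = 2.21e-08), PTX3, a secreted pattern recognition protein, in U87 10 Gy (-0.68 and -0.67, adjusted p = 1.87e-08) and CXCL1, a chemokine, in U87 Si306 + 10 Gy (-0.94 and -0.93, adjusted p = 4.22e-08). These signs were the same under the 6 other settings of background and scaling, though PTGS2 was 2.99 and 1.08 with the ratio of the scanner software, and IRAK1 was 0.99 and 0.95 with a correction for probe GC content. With median centring LTB was -0.69 and -0.42, IL6 -0.32, PTX3 -0.36 and CXCL1 -0.54. All of these are differences against the control of their own configuration.

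NFKBIA had the widest range of the 12 probes between configuration means, 0.95 on the log2 scale. The genes whose ratios lay nearest to it, by the root mean square difference over the 7 arrays that measured it, were FAM111A (0.0488), LYST (0.0776), the transcript ENST00000379938 (0.102), CTTN (0.104) and COL1A1 (0.105), against a median of 0.548 over 21379 genes. FAM111A had means of 0.89 and 0.42 after 2 and 10 Gy alone, and of -0.05 and 0.11 when Si306 was added to these doses.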

How the data were processed

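Files of 24 scans of Agilent 4x44K arrays were deposited by the authors, as the intensity of each spot and its local background in Cy5 and Cy3, made with Agilent Feature Extraction 9.5.3.1 per the file headers, together with the log10 ratio of the scanner software. The deposited series table held the same log10 ratio, with a largest difference of 0.005. From the mean signals and median backgrounds, spots flagged as outliers were removed, background was corrected with normexp (offset 50), ratios were normalised within each scan by loess with control spots at weight 0, and spots of a probe and then scans of an array were averaged. Removing the flagged spots before the normexp fit was decided after seeing the files. Probes were kept where either channel was well above background on at least a share of 0.667 of the arrays of a configuration. The log2 ratios were fitted with limma 3.58.1 (R 4.3.3) over all 8 arrays and 30264 probes, with Benjamini-Hochberg adjustment over all tested probes of each of 8 comparisons, and a 2-fold change also needed a log2 ratio of 1. On simulated ratios for U87 2 Gy over 30264 probes, the fit recovered 100% of 50 changes of log2 size 0.5. The simulation held only normal noise at the fitted spread, with no dye, slide or scaling effect. It held no change smaller than 0.5, so it says nothing of smaller ratios. Probe positions are those of the files (hg17), promoter letters those of RefSeq (GRCh38.p14). The members, the pathway list and the tests were chosen with earlier results of these data known. Named were all members, pathway genes with a 2-fold change or at either end of a configuration, and the 5 genes nearest to the member with the widest range. Alternatives covered background, normalisation, filter, scans, single arrays and probe choice. Batches other than the slide were not analysed here. One further marker of the cell type lists is not reported here.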

Additional observations from a re-analysis of the deposited data

Results flagged for a closer look

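The dose difference in the log2 ratio, 10 Gy minus 2 Gy, passed the limma test of the difference itself at 14 values, 1 of them at a probe at background. With PT alone the differences were 0.15 for NFKB1, -0.36 for RELB, -0.52 for NFKBIA, 0.40 for NFKBIE, -0.29 for the brighter TNFAIP3 probe, -0.19 for TNFAIP2, -0.19 for the bright SOD2 probe and -0.42 for the dimmer SOD2 probe. With Si306 added they were 0.31 for RELB, -0.37 for the brighter TNFAIP3 probe, 0.50 for TNFAIP2, 0.18 for BIRC3, 0.55 for the bright SOD2 probe, which rests on 1 array at 2 Gy, and a fitted -0.21 for the dimmer SOD2 probe, which was not above background on those arrays, so that no dose difference is read from it. RELB and TNFAIP2 were lower at 10 Gy with PT alone and higher at 10 Gy with Si306 added, against a different control in each, and with median centring the RELB difference with Si306 was 0.070 (adjusted p = 0.361). The calls of NFKB1 and of the bright SOD2 probe with PT alone, and of BIRC3 with Si306, were each lost under 13 other settings. The 4 measurements of untreated cells per probe held no value that stood apart from the other 3.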

How the results depend on the processing

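Over 17 alternatives that kept all arrays or left out a pair, 197 of 204 counts of called probes or genes stayed within 1.5 times the reported count. The exceptions were the count of 10 Gy minus 2 Gy with PT alone, which went from 8 to 5 with a normexp offset of 10, to 5 with probes above background in both channels on all arrays, to 0 with the disagreeing scans under their label and to 4 without both arrays that held such a scan (a choice made after seeing the data), the same difference with Si306 added, from 6 to 2 with the disagreeing scans under their label, U87 Si306 + 10 Gy, from 6 to 11 with median centring, and U87 2 Gy, from 11 to 7 without both arrays. Leaving out 1 array at a time, with the lone array of its configuration assumed to vary like the others, gave 8 to 11 members in U87 2 Gy, 9 to 10 in U87 10 Gy, 7 to 11 in U87 Si306 + 2 Gy, 2 to 7 in U87 Si306 + 10 Gy (2 without its array 1), 4 to 7 and 4 to 7 for the dose differences with PT alone and with Si306, and 6 to 8 and 8 to 9 for the sums net of untreated cells.

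Among values that passed the test as reported or under the alternative, directions turned at 28, 4 of them fitted values of dimmer probes at background on the slide with Si306, which are not read as ratios. With median centring, U87 2 Gy had -0.54 for the dimmer TNFAIP3 probe and -0.10 for BIRC3, and U87 10 Gy had 0.067 for NFKB1 and 0.28 for the bright SOD2 probe. U87 Si306 + 2 Gy had 0.25 for NFKB1, 0.55 for RELB, 0.88 for NFKBIA, 0.45 for NFKBIE, 0.42 for TNFAIP2, 0.12 for BIRC3, and 0.011 and -0.76 for the bright and dimmer SOD2 probes. U87 Si306 + 10 Gy had 0.11 for NFKB1, 0.18 for BIRC3, and 0.39 and -0.59 for the SOD2 probes. The dose difference with Si306 had 0.61 for the dimmer TNFAIP3 probe and 0.16 for the dimmer SOD2 probe. Net of untreated cells, Si306 + 2 Gy had 0.23 for NFKB1, -0.79 for NFKB2, 0.013 for BIRC3 and 0.56 for the bright SOD2 probe, and Si306 + 10 Gy had 0.17 for NFKB1, -0.31 for NFKB2 and 0.67 for the bright SOD2 probe. With the probes of a gene averaged, SOD2 had -0.075 after 2 Gy alone, 0.036 with Si306 and 2 Gy, and -0.037 in the dose difference with Si306. Signs also turned at values that passed in neither, such as NFKBIA in the dose difference with Si306 (0.11 to -0.21) and the brighter TNFAIP3 probe in U87 Si306 + 10 Gy (0.09 to -0.07) with median centring, and TNFAIP2 net of untreated cells for Si306 + 2 Gy (0.03 to -0.06) with the disagreeing scans under their label. The cause was not tested.

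With every scan as a replicate and the replicate number as a block, 11 and 10 members passed after 2 and 10 Gy alone and 11 and 8 with Si306 added, against 10, 10, 11 and 6 without the block, and no count moved by over 1.5 times. The numbers do not pair the scans: deviations of same-numbered scans of different configurations correlated at -0.24 to 0.23, with 2 of 36 pairs over 0.1. The ratios limit what can be said of SOD2 and TNFAIP3, whose dimmer probes are at background on the slide with Si306, and of NFKBIA and the bright SOD2 probe in U87 Si306 + 2 Gy, with 1 array each.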
